A study of Mus musculus with 15 samples.

Results

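The neutrophil granule and maturation genes described here are 48 genes of the 24089 gene symbols in each deposited table. They were chosen by symbol, and with it known that neutrophil RNA differs between the genotypes in bone marrow ILC2 precursors (ILC2p), so their ILC2p values, and the calls they meet in the fit across all genes, are a description and no independent evidence. Of the 48 genes, 10 mark a granule stage and 38 are other granule, secreted, receptor, oxidase and cytosolic genes. *Mmp8*, *Mmp9*, *Cxcr2*, *Itgam*, *Gda* and *Capg* were also singled out in the study from these same libraries, so their direction is not independent evidence.

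RNA-seq was done on 15 libraries of adult C57BL/6 mice that all carried floxed *Tgfbr2* with the tamoxifen-inducible ER-Cre (*Tgfbr2*f/f ER-Cre+). Oil for 5 days gave WT and tamoxifen for 5 days gave Tgfbr2-/-, which deletes the gene of TGF-β receptor II in every cell type where the inducible Cre acts. ILC2p, sorted as CD45.2+Lin-CD127+α4β7+CD25+ bone marrow cells, came from irradiated CD45.1 recipients of mixed *Tgfbr2*f/f ER-Cre+ and CD45.1 bone marrow, with 4 WT and 4 Tgfbr2-/- libraries. Mature ILC2s, sorted as CD45+Lin-CD127+Sca-1+CD25+KLRG1+ cells of the intestinal lamina propria (LP), came from treated mice directly, with 4 WT and 3 Tgfbr2-/- libraries. Each cell type was done in 2 experiments. By the study's names for the chimeras, the donors were treated before the transfer. The labels do not say which animals stand behind a library or how many were pooled, so the spread between libraries may be partly technical. Total counts on genes ran from 10957021 to 35961215 in ILC2p and from 12167066 to 32114265 in LP ILC2s.

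Neutrophils fill their granules in order as they mature in the bone marrow. Promyelocytes make the proteases and peroxidase of the primary (azurophil) granules, myelocytes and metamyelocytes make the secondary (specific) granule proteins under the transcription factor C/EBPε, and later stages make tertiary (gelatinase) granules and the receptors of the circulating cell. ILC2p are lymphoid precursors, and the lineage cocktail of the sort held antibodies to CD11b (*Itgam*) and Gr-1, which neutrophils carry.

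*Tgfbr2*, the targeted gene, did not separate the genotypes. In WT ILC2p it was at 0.701 and 227 CPM in experiment 1 and at 105 and 185 CPM in experiment 2, and in Tgfbr2-/- ILC2p at 85.7 and 131 CPM and at 29.2 and 198 CPM (CPM, the usual library-size unit, here after TMM scaling). In LP ILC2s it was at 191 and 278 CPM (experiment 1) and 156 and 215 CPM (experiment 2) in WT, and at 215 and 191 CPM (experiment 1) and 102 CPM (experiment 2) in Tgfbr2-/-. Reads over the whole transcript were counted, so transcripts that lack the deleted part still count. Why *Tgfbr2* did not separate the genotypes was not tested. Libraries are named by their labels throughout. Detection was uneven in ILC2p. WT replicate 1 of experiment 1 had under 1 CPM for 512 (13.98%) of the 3663 genes whose median over the remaining ILC2p libraries reached 50 CPM, and the share was 3.62% in WT replicate 2 of experiment 1 and 1.73 and 1.54% in the WT libraries of experiment 2. Among the Tgfbr2-/- libraries it was 11.8% and 13.5% in experiment 1 and 1.78% and 8.74% in experiment 2.

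Promoters are shown for 2 primary, 2 secondary and 1 tertiary granule gene, since the groups are described by stage below. Each is the RefSeq window on GRCm38.p6 from 250 bases before the start of transcription to 50 bases after it, written 5′ to 3′ on the gene's strand. Capitals mark matches on either strand to TTGCNNAA (a C/EBP core), GAGGAAG (a PU.1 core) or TGTGGT (a RUNX core).
Mpo, chr11:87793534-87793833, plus strand: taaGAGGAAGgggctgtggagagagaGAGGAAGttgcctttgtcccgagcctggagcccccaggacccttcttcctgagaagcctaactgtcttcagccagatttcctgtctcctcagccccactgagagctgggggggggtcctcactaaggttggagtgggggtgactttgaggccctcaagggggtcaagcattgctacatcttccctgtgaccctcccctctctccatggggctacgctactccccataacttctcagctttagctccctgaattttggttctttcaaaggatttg
Elane, chr10:79886062-79886361, plus strand: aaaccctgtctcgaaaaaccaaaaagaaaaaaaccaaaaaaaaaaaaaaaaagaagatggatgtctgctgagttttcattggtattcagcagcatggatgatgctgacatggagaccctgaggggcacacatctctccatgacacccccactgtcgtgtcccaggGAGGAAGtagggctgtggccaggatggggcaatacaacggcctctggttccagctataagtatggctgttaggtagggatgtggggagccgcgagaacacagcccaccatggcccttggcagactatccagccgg
Ngp, chr9:110419558-110419857, plus strand: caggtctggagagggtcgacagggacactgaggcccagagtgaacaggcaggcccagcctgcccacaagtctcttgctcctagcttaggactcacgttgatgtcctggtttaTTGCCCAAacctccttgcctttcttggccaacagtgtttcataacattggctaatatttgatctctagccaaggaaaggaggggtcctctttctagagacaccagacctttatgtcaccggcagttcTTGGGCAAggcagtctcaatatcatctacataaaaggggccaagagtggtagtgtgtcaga
Ltf, chr9:111019042-111019341, plus strand: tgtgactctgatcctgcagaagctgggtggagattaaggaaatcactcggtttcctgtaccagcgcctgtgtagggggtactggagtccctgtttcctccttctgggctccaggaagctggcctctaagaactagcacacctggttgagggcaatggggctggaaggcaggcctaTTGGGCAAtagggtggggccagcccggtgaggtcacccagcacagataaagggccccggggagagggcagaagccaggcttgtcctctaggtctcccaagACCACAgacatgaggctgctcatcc
Mmp8, chr9:7558179-7558478, plus strand: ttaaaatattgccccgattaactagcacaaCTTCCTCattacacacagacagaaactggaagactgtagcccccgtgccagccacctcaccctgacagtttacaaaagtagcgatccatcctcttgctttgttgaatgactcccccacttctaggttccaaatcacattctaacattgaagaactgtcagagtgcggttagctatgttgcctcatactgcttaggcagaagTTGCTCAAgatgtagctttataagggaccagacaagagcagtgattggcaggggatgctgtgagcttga
Windows were found for 43 of the 48 genes. GAGGAAG was in all 4 primary gene windows (*Mpo*, *Elane*, *Prtn3* and *Ctsg*), in 1 of 4 secondary windows (*Lcn2*) and in the *Mmp8* window. TTGCNNAA was in 0 of 4 primary windows, in 3 of 4 secondary windows (*Ltf*, *Ngp* and *Lcn2*, not *Camp*) and in the *Mmp8* window. TGTGGT was in the windows of *Ctsg* and *Ltf* among these genes. Over the 43 windows TTGCNNAA was in 13 (30.2%), GAGGAAG in 14 (32.6%) and TGTGGT in 9 (20.9%). Over all 27025 windows of the same length the shares were 10.8%, 13.5% and 16.9%. These are matches of letters in a short window, and binding was not measured.

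The 48 genes took 9.88 to 11.3% of all counts in the 4 Tgfbr2-/- ILC2p libraries, 0.249 to 0.324% in the 4 WT ILC2p libraries and 0.116 to 0.159% in the 7 LP ILC2 libraries. In bulk RNA, fewer cells of a type and less RNA per cell cannot be told apart. Of the 48 genes, 47 passed the filter on low counts in ILC2p, and 38 of them met the call (Benjamini-Hochberg adjusted p under 0.1 and fold change over 1.5 from edgeR's quasi-likelihood test across all genes), all 38 higher in Tgfbr2-/- ILC2p. Across all 9242 genes tested, 3.47% were called, with 2.61% called higher. Every Tgfbr2-/- library was above every WT library for 43 of the 47 genes, against 6.14% of all genes tested. The choice of genes used this contrast, so nothing is read from these counts. The median log2 fold change of the 47 genes was 8.20, and that of all genes tested was -0.10.

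**Figure D1:**
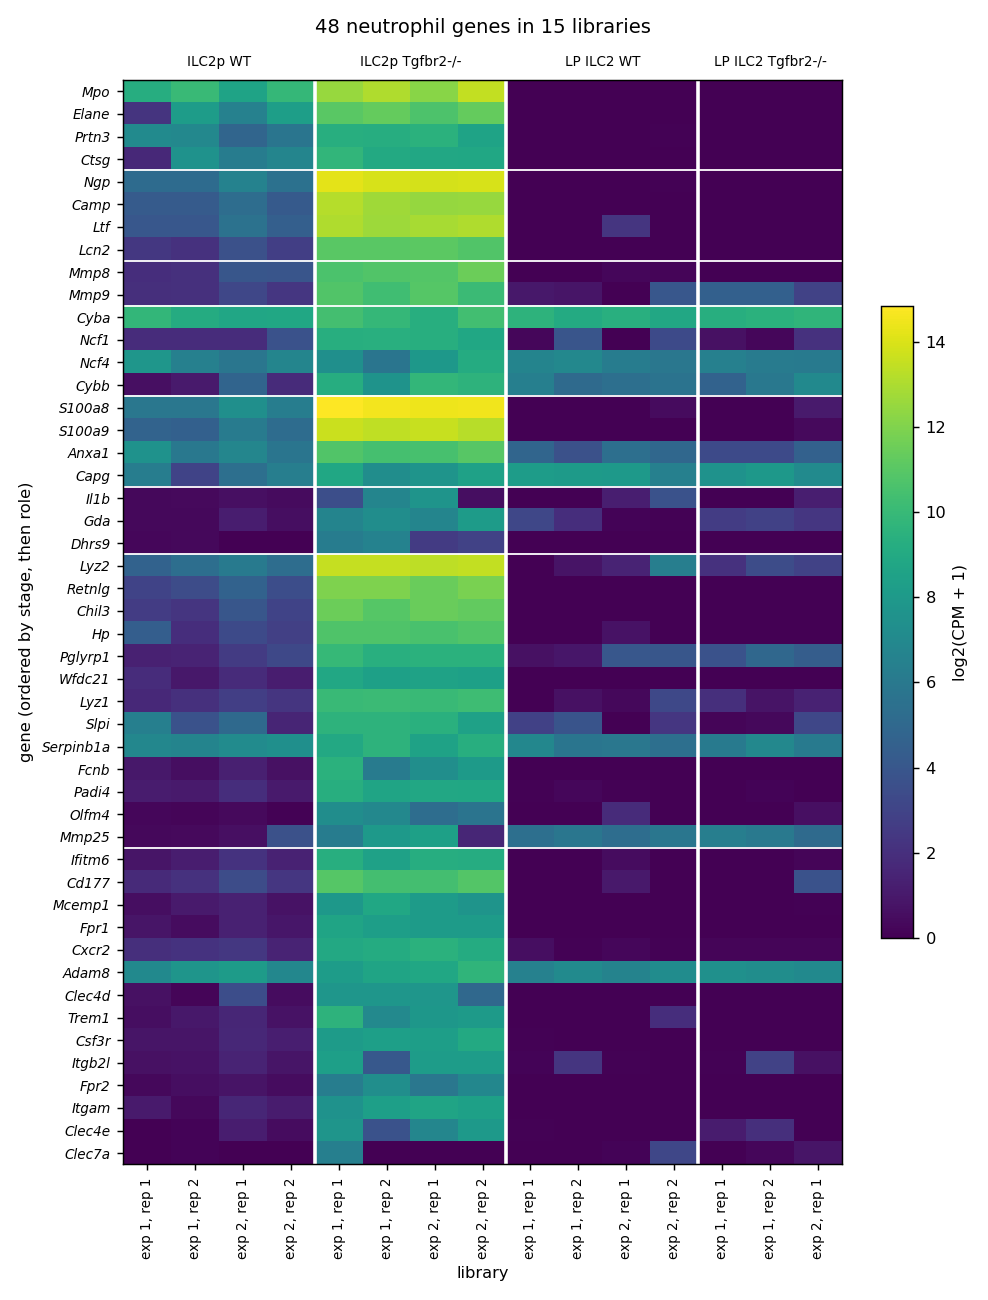
Heat map of log2(CPM + 1) for the 48 genes (rows, ordered by granule stage and then role) in the 15 libraries (columns, by group, experiment and replicate; ILC2p and LP ILC2s were scaled separately). The genes take 9.88 to 11.3% of counts in Tgfbr2-/- ILC2p, and *Mpo*, at 391 to 1063 CPM, is the highest of the 10 staged genes in each of the 4 WT ILC2p libraries.

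Primary granule genes were present in both genotypes. *Mpo*, the myeloperoxidase that makes hypochlorous acid, is encoded on the plus strand of chromosome 11 (bases 87607083 to 87617915, NCBIM37). It was at 611 and 1063 CPM in WT ILC2p of experiment 1 and at 391 and 920 CPM in experiment 2, and at 5938 and 8481 CPM and at 4680 and 11420 CPM in Tgfbr2-/- ILC2p (log2 fold change 3.36, standard error 0.39). The groups did not overlap, and each WT library still held 6974 to 38595 *Mpo* counts. *Elane*, neutrophil elastase, and *Prtn3*, proteinase 3, are neighbours on chromosome 10, 3.14 kb apart. *Elane* was at 3.77 and 294 CPM (experiment 1) and 88.9 and 317 CPM (experiment 2) in WT, and at 2052 and 2547 CPM and 1639 and 2557 CPM in Tgfbr2-/- ILC2p (log2 fold change 3.66, standard error 1.01, not called). *Prtn3* was at 136 and 122 CPM and 27.0 and 52.3 CPM in WT, and at 628 and 612 CPM and 721 and 391.9 CPM in Tgfbr2-/- ILC2p (log2 fold change 3.04, standard error 0.47). *Ctsg*, cathepsin G, was at 2.28 and 186 CPM and 75.1 and 107 CPM in WT, and at 850 and 522 CPM and 481 and 458 CPM in Tgfbr2-/- ILC2p (log2 fold change 2.62, standard error 0.95, not called). WT replicate 1 of experiment 1, the library with the poorest detection, was the low one for *Elane* and *Ctsg*, with 43 and 26 counts, and not for *Mpo* or *Prtn3*.

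Secondary granule genes were at 3.29 to 94.1 CPM in the WT ILC2p libraries and at 1778 to 19250 CPM in the Tgfbr2-/- ILC2p libraries. *Ngp*, neutrophilic granule protein (plus strand of chromosome 9, bases 110322254 to 110325514, NCBIM37), was at 35.9 and 35.3 CPM (experiment 1) and 94.1 and 45.4 CPM (experiment 2) in WT, and at 19250 and 15540 CPM and 14950 and 15840 CPM in Tgfbr2-/- ILC2p (log2 fold change 8.36, standard error 0.38). *Ltf*, lactoferrin, which binds iron, was at 15.2 and 15.5 CPM and 46.5 and 21.6 CPM in WT, and at 8574 and 6333 CPM and 7523 and 8370 CPM in Tgfbr2-/- ILC2p (8.39, standard error 0.40). *Camp*, the precursor of the antimicrobial peptide cathelicidin, was at 18.1 and 18.1 CPM and 39.0 and 17.7 CPM in WT, and at 9426 and 6696 CPM and 5623 and 6064 CPM in Tgfbr2-/- ILC2p (8.24, standard error 0.41). The spread of each gene within a genotype was small beside these differences, and WT replicate 1 of experiment 2 was the highest WT library for all 4 genes of the stage. *Lcn2*, lipocalin 2, which takes up bacterial siderophores, was at 4.21 and 3.29 CPM and 11.6 and 5.80 CPM in WT, and at 2075 and 2091 CPM and 2196 and 1778 CPM in Tgfbr2-/- ILC2p (8.47, standard error 0.46). *Camp*, *Ngp* and *Ltf* lie within one stretch of chromosome 9, with 570 kb between *Camp* and *Ngp* and 596 kb between *Ngp* and *Ltf*.

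The tertiary granule genes followed the secondary ones. *Mmp8*, neutrophil collagenase, was at 2.80 and 3.17 CPM (experiment 1) and 14.55 and 14.02 CPM (experiment 2) in WT, and at 1597 and 1762 CPM and 1853 and 2869 CPM in Tgfbr2-/- ILC2p (log2 fold change 8.24, standard error 0.49). *Mmp9*, gelatinase B, was at 3.07 and 3.23 CPM and 7.79 and 4.03 CPM in WT, and at 1790 and 1237 CPM and 1934 and 1118 CPM in Tgfbr2-/- ILC2p (8.45, standard error 0.46). Both genes kept the groups far apart, and both were higher in the WT libraries of experiment 2 than in those of experiment 1.

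**Figure D2:**
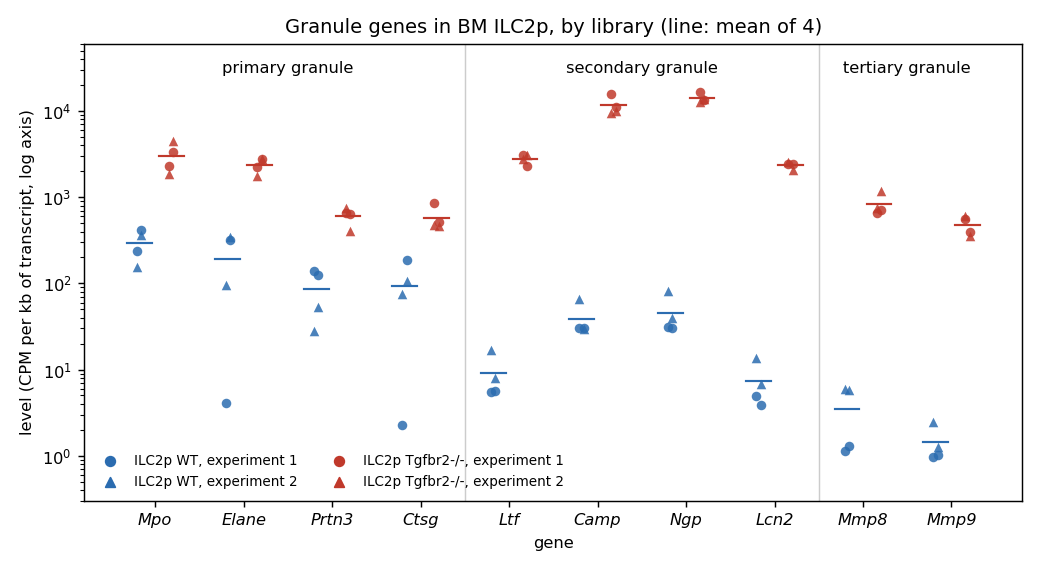
Level of the 10 staged granule genes (x axis) in CPM per kb of transcript (y axis, log scale) in the 8 ILC2p libraries, with colour for genotype, symbol for experiment and a line at the mean of 4 libraries. The distance between the genotypes is smaller for the primary genes *Mpo*, *Elane*, *Prtn3* and *Ctsg* (log2 fold changes of 2.62 to 3.66) than for the secondary and tertiary genes (8.24 to 8.47).

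Summed by stage on the same per-length scale (CPM per kb), primary granule genes were at 664 ± 347 (SD, n = 4) in WT and 6570 ± 1429 (SD, n = 4) in Tgfbr2-/- ILC2p, a ratio of 9.90. Secondary genes were at 100.4 ± 51.2 (SD, n = 4) and 30920 ± 4694 (SD, n = 4), a ratio of 308. Tertiary genes were at 4.95 ± 3.21 (SD, n = 4) and 1302 ± 180 (SD, n = 4), a ratio of 263. The log2 ratios were 3.31, 8.27 and 8.04. Within experiments the primary log2 ratio was 3.21 and 3.41, the secondary 8.89 and 7.76 and the tertiary 9.04 and 7.55 in experiments 1 and 2. Thus the primary ratio was close in both experiments, and the secondary and tertiary ratios were larger in experiment 1, where the WT levels were lower. No p is given for these sums, since the genes were chosen with the results known.

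The makeup of the granule RNA also differed in its stages. Primary genes made 84.0 and 93.5% of the staged sum in WT ILC2p of experiment 1 and 65.6 and 90.6% in experiment 2, and 13.4 and 19.2% and 14.3 and 21.1% in Tgfbr2-/- ILC2p. Secondary genes made 74.98 to 83.9% of it in Tgfbr2-/- ILC2p and 6.25 to 32.8% in WT, and tertiary genes 2.69 to 4.04% and 0.206 to 1.56%. The primary-to-secondary ratio was 0.160 and 0.247 in experiment 1 and 0.176 and 0.281 in experiment 2 for Tgfbr2-/- ILC2p. It was 5.41 and 14.96 and 2.00 and 10.4 for WT. Tgfbr2-/- replicate 2 had more *Mpo* per *Ngp* count than replicate 1 in each experiment, 0.546 against 0.308 and 0.721 against 0.313.

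**Figure D3:**
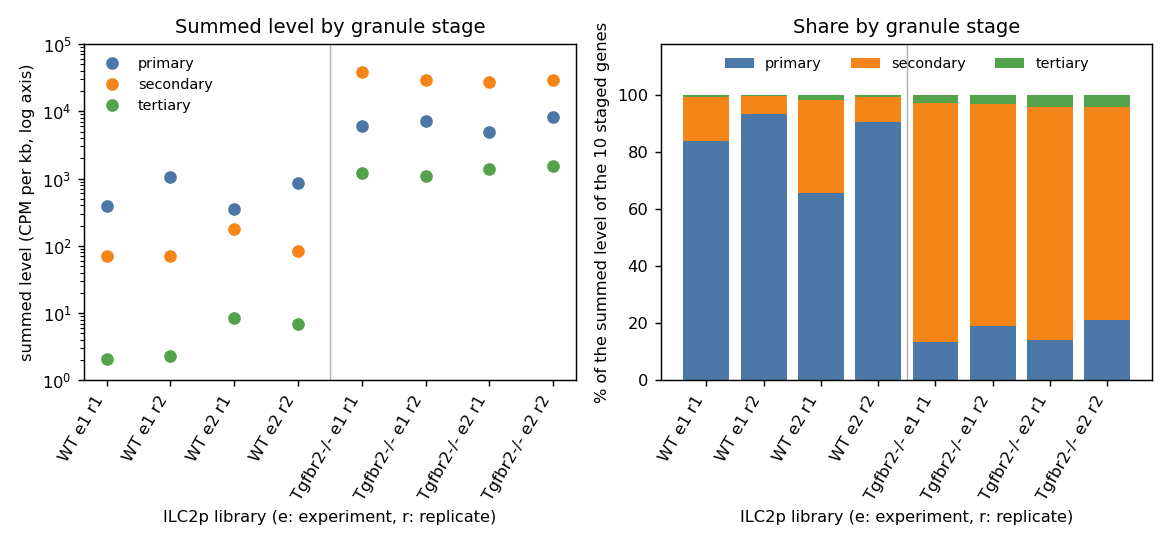
Left, summed level of primary, secondary and tertiary granule genes (CPM per kb, log axis) in each ILC2p library; right, the percent of the summed level that each stage makes up. Primary genes make 65.6 to 93.5% of the sum in the 4 WT libraries and 13.4 to 21.1% in the 4 Tgfbr2-/- libraries.

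The WT counts of secondary and tertiary genes stood in a nearly constant proportion to the Tgfbr2-/- counts of the same experiment. In experiment 1 the pooled WT counts of the 4 secondary genes were 0.257 to 0.326% of the pooled Tgfbr2-/- counts, and in experiment 2 they were 0.608 to 0.688%. *Mmp8* and *Mmp9* were at 0.264 and 0.304% in experiment 1 and 0.871 and 0.563% in experiment 2. The 4 primary genes were at 11.52 to 30.1% and 10.9 to 28.8%. Of the 48 genes, 31 were under 1% in both experiments. Among all genes with at least 5000 Tgfbr2-/- counts, 67 of 735 were under 1% in experiment 1 and 96 of 2468 in experiment 2. Of the 48 genes, 37 and 44 reached that count, and 27 and 28 of these were under 1%. The 11 genes at 1% or more in both were the 4 primary genes with *Cyba*, *Ncf4*, *Slpi*, *Anxa1*, *Adam8*, *Serpinb1a* and *Capg*. The other 6 were *Mmp25*, *Pglyrp1*, *Cybb*, *Ncf1*, *Clec4d* and *Clec7a*.

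These low WT proportions were close to the smallest of any gene. Among the 735 genes with at least 5000 Tgfbr2-/- counts in experiment 1 the lowest WT proportion was 0.153%, and among the 2468 such genes in experiment 2 it was 0.421%. In the opposite direction, among genes with at least 5000 WT counts, the lowest Tgfbr2-/- proportion was 0.267% and 0.161%. The 4 libraries of an experiment carry 1 run name in the file headers. The ratio of *Ltf* to *Ngp*, both secondary genes, was also alike in both genotypes, and *Ltf* counts per *Ngp* count were 0.422 and 0.438 in WT and 0.445 and 0.407 in Tgfbr2-/- ILC2p of experiment 1, and 0.494 and 0.476 against 0.503 and 0.528 in experiment 2. Of the primary pair *Elane* and *Mpo* this did not hold in WT replicate 1 of experiment 1, with 0.00617 *Elane* counts per *Mpo* count against 0.224 to 0.350 in the other 7 ILC2p libraries. In the 7 LP ILC2 libraries, which carry other run names, *Ngp* had 0 counts in 6 and 1 count in 1. Whether the WT counts of these genes came from RNA of the WT cells or from reads passed between libraries of a run was not tested, and the ratio of 308 rests on those counts. *Mpo* and *Prtn3* were well above that proportion in all 4 WT libraries (3.20 to 17.4%), and *Elane* and *Ctsg* in 3 of 4. In WT replicate 1 of experiment 1 *Elane* was at 0.0946% and *Ctsg* at 0.189% of the Tgfbr2-/- counts.

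**Figure D4:**
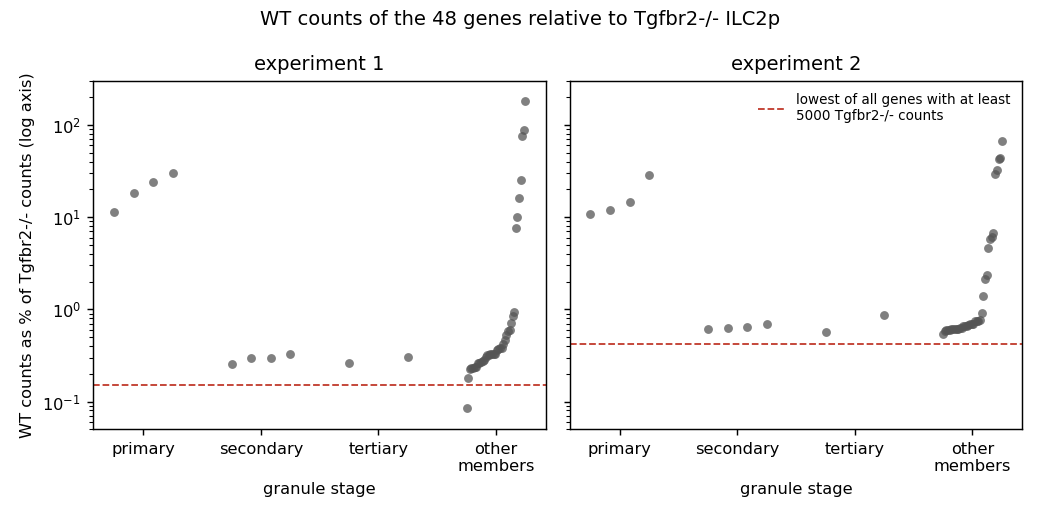
Pooled WT counts of each gene as a percent of the pooled Tgfbr2-/- counts of the same experiment (y axis, log scale), by granule stage (x axis), with experiments 1 and 2 in separate panels and a dashed line at the lowest percent of all genes with at least 5000 Tgfbr2-/- counts (0.153 and 0.421%). Secondary and tertiary genes sit under 1%, near the line, and primary genes at 10.9 to 30.1%; *Dhrs9* in experiment 2, with 0 WT counts, and *Clec7a* in experiment 2, with 0 Tgfbr2-/- counts, are not drawn.

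Per kb of transcript the most abundant of the 38 genes without a stage was *S100a8*, with *S100a9* next, the subunits of the calcium- and zinc-binding protein calprotectin. *S100a8* was at 57.9 and 58.9 CPM (experiment 1) and 164 and 76.9 CPM (experiment 2) in WT, and at 29030 and 23980 CPM and 22800 and 23280 CPM in Tgfbr2-/- ILC2p (log2 fold change 8.20, standard error 0.40). *S100a9*, which lies 22.6 kb away on chromosome 3, was at 25.2 and 21.9 CPM and 69.6 and 36.7 CPM in WT, and at 12930 and 10990 CPM and 12140 and 9752 CPM in Tgfbr2-/- ILC2p (8.34, standard error 0.40). Both showed the pattern of the secondary genes. *Lyz2*, lysozyme, was at 24.3 and 40.6 CPM and 67.5 and 39.0 CPM in WT, and at 11910 and 11910 CPM and 10300 and 11380 CPM in Tgfbr2-/- ILC2p (8.09, standard error 0.34). *Lyz1* is a near-identical copy 5.48 kb away, had 0.0795 to 0.103 counts per *Lyz2* count in all 8 libraries, and can share its reads, so the split between them is uncertain. *Retnlg*, a resistin-like secreted protein of mature neutrophils, was at 6.92 and 9.80 CPM and 23.8 and 10.4 CPM in WT, and at 3905 and 3954 CPM and 2775 and 3638 CPM in Tgfbr2-/- ILC2p (8.21, standard error 0.47). *Chil3*, a chitinase-like protein with close paralogs, was at 5.17 and 3.85 CPM and 14.7 and 6.96 CPM in WT, and at 2867 and 1905 CPM and 2758 and 2435 CPM in Tgfbr2-/- ILC2p (8.47, standard error 0.46). The values of *Lyz2*, *Retnlg* and *Chil3* did not overlap between genotypes in any library. *Hp*, haptoglobin, was at 20.9 and 2.83 CPM and 9.23 and 5.99 CPM in WT, and at 1699 and 1726 CPM and 1536 and 1770 CPM in Tgfbr2-/- ILC2p (7.47, standard error 0.67).

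*Cyba* and *Anxa1* differed less, and both had substantial levels in WT ILC2p. *Cyba*, the p22phox subunit of the NADPH oxidase, which lymphoid cells also express, was at 896 and 558 CPM and 445 and 457 CPM in WT, and at 1330 and 941 CPM and 632 and 1292 CPM in Tgfbr2-/- ILC2p (0.87, standard error 0.30, not called), and the genotypes overlapped. *Anxa1*, annexin A1, was at 184 and 60.2 CPM and 109 and 54.1 CPM in WT, and at 1793 and 1377 CPM and 1465 and 1975 CPM in Tgfbr2-/- ILC2p (4.05, standard error 0.44).

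By role, 12 of the 13 other granule and secreted proteins were called higher in Tgfbr2-/- ILC2p, with a median log2 fold change of 8.09. They were *Chil3*, *Retnlg*, *Pglyrp1*, *Wfdc21*, *Lyz1*, *Lyz2*, *Fcnb*, *Padi4*, *Slpi*, *Hp*, *Olfm4* and *Serpinb1a*, and *Mmp25* was not called. Of the 14 receptors and surface proteins, 13 were tested and 11 were called higher (median 8.24). Among them were *Cxcr2*, the receptor for neutrophil-attracting chemokines, at 1.79 to 4.35 CPM in WT and 499 to 715 CPM in Tgfbr2-/- ILC2p, and *Csf3r*, the G-CSF receptor, at 0.789 to 2.16 CPM and 277 to 507 CPM. *Itgam*, the CD11b chain of the lineage cocktail, was at 0.227 to 2.00 CPM in WT and 188 to 407 CPM in Tgfbr2-/- ILC2p. Of the 4 NADPH oxidase genes, *Cybb* (7.32) and *Ncf1* (7.04) were called and *Cyba* and *Ncf4* were not. Of the 4 cytosolic calcium-binding genes, *Capg* was not called. *Gda* and *Dhrs9* were called and *Il1b* was not.

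Members differed in how evenly they appeared among the 4 Tgfbr2-/- libraries. For 36 genes the highest Tgfbr2-/- library was less than 3 times the lowest, and the median over genes of that ratio was 1.83. For 10 genes it was over 5 times or could not be computed. *Il1b*, an inflammatory cytokine of activated neutrophils, was at 10.7 and 105 CPM (experiment 1) and 203 and 0.491 CPM (experiment 2). *Mmp25*, a membrane-anchored metalloproteinase, was at 73.5 and 244 CPM and 347 and 1.97 CPM. *Clec7a*, the β-glucan receptor dectin-1, was at 83.0 CPM in Tgfbr2-/- replicate 1 of experiment 1 and had 0 counts in the other 3. It did not pass the filter on low counts. In contrast, *Lyz2* varied by 1.16 times and *Lcn2* by 1.24 times over the same libraries.

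The transcription factors of granulocytes split in the same contrast. Of 8 listed regulators, all tested, 3 were called higher and 0 lower. Over all genes tested in ILC2p, 2.61% were called higher and 0.866% lower. This list and those below were chosen with earlier results of these data known. Their calls and adjusted p-values in ILC2p are thus a description and no independent evidence. *Cebpe*, the factor of secondary granule genes, was at 0.789 and 0.850 CPM (experiment 1) and 2.44 and 1.00 CPM (experiment 2) in WT, and at 729 and 195 CPM and 278 and 431 CPM in Tgfbr2-/- ILC2p (8.39, SE 0.79, edgeR adjusted p = 0.000483). *Spi1*, which encodes PU.1, was at 1.31 to 4.43 CPM and 461 to 738 CPM (7.69, SE 0.57, edgeR adjusted p = 0.000124). *Cebpd* was at 1.14 to 10.2 CPM and 295 to 487 CPM (6.84, SE 0.91, edgeR adjusted p = 0.00404). The fold changes of these 3 genes rest on low WT counts, whose source was not tested. This also holds for genes named below with low WT counts, such as *Prss34*. *Cebpb* was at 310 to 603 CPM in WT and 501 to 931 CPM in Tgfbr2-/- ILC2p, and the groups overlapped. *Cebpa*, *Gfi1*, *Irf8* and *Klf4* were not called either. *Cebpa* was at 0 to 20.9 CPM in WT and 0 to 225 CPM in Tgfbr2-/-, and *Gfi1*, which ILC2p also use, at 18.8 to 82.5 CPM and 0.386 to 37.9 CPM.

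Of 28 other neutrophil genes, 23 were tested, and 16 were called higher and 0 lower (median log2 fold change 6.53). The shares over all genes tested were 2.61% higher and 0.866% lower. Among those called were *Hdc*, *Lrg1*, *Stfa2*, *Stfa2l1*, *Il1r2*, *Fcgr3*, *Fcer1g*, *Tyrobp*, *Alox5ap*, *C5ar1*, *Ccr1*, *Cd14*, *Csf2rb* and *Lcp1*. *Fcgr3*, an Fc receptor, was at 0.526 to 8.61 CPM in WT and 350 to 613 CPM in Tgfbr2-/- ILC2p. *Hdc*, histidine decarboxylase, was at 2.15 to 20.8 CPM and 849 to 1245 CPM. *Rac2* and *Ltb4r1*, among the most abundant of the list, were at 942 and 333 CPM or more in every WT library and were not called. *Ly6g* was not analysed here. *Stfa2* and *Stfa2l1* belong to a family of near-identical copies, so their counts are uncertain. *Il1r2* was also picked in the study from these libraries.

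Some markers of neighbouring lineages were called higher too, and the 2.61% of all genes called higher is the background for the counts that follow. Of 8 basophil and mast cell genes, 5 were tested and 4 called higher: *Prss34*, the most abundant, *Mcpt8*, *Fcer1a* and *Gata2*. The groups of *Gata2* overlapped, with 0.389 CPM in Tgfbr2-/- replicate 1 of experiment 1 and 1.11 CPM in WT replicate 1 of experiment 2. *Prss34*, a basophil protease, was at 1.93 to 5.04 CPM in WT and 807 to 954 CPM in Tgfbr2-/- ILC2p (8.33, SE 0.48, edgeR adjusted p = 2.69e-05). The summed level of that list was 109 to 292 CPM in WT, most of it *Cpa3*, and 1188 to 1729 CPM in Tgfbr2-/-. *Cpa3* itself was not called (-0.02, SE 0.49), and its groups overlapped. *Ms4a2*, *Cma1* and *Tpsb2* had at most 3 counts in every ILC2p library. Of 14 monocyte and macrophage genes, 7 were tested and 1 called higher, *F13a1*, at 0.613 to 3.35 CPM in WT and 225 to 846 CPM in Tgfbr2-/-. Their summed level was 215 to 337 CPM and 892 to 1911 CPM, and *Ccr2*, the most abundant, was not called and overlapped between the groups. *Csf1r*, the defining receptor of monocytes, was at 285 and 122 CPM and 198 and 0.561 CPM in Tgfbr2-/- ILC2p. Of 11 eosinophil genes, 2 were tested and both called higher, *Ear1* and *Ear2*, which have close paralogs. Their list summed to 0.793 to 6.13 CPM in WT and 14.7 to 554 CPM in Tgfbr2-/-. *Prg2*, the eosinophil major basic protein, was at 305 and 0.314 CPM and 267 and 0.351 CPM in Tgfbr2-/- ILC2p, so it was high in 1 library of each experiment, and *Il5ra* had at most 3 counts in every library. The part of these cell types in the levels of the 48 genes was not tested.

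**Figure D5:**
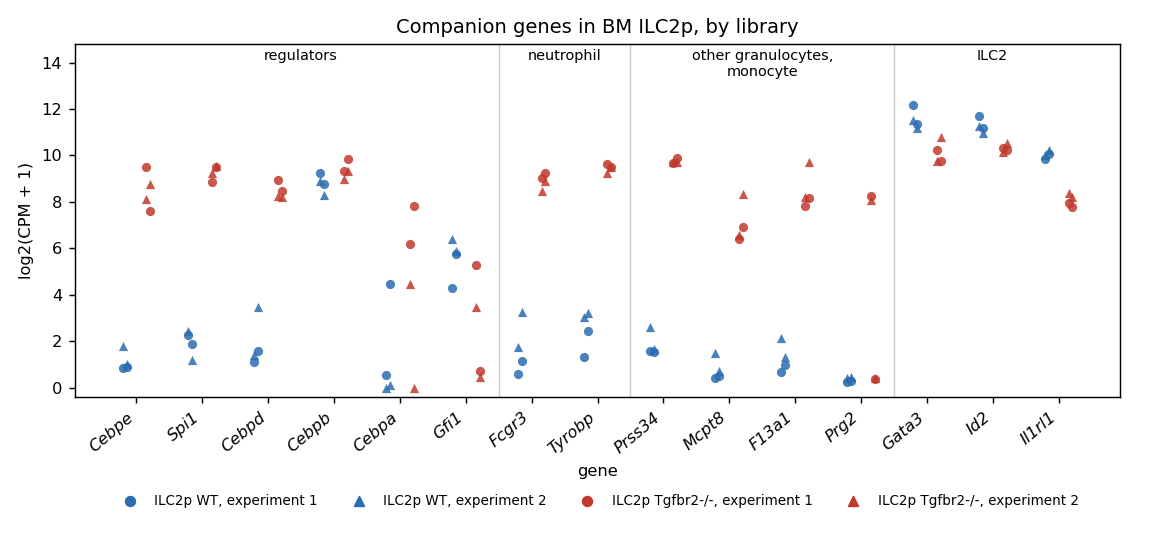
Level as log2(CPM + 1) (y axis) of granulocyte regulators, neutrophil genes, genes of other granulocytes and monocytes, and ILC2 genes (x axis) in the 8 ILC2p libraries, with colour for genotype and symbol for experiment. *Cebpe*, *Spi1*, *Fcgr3*, *Prss34* and *F13a1* lie high in all 4 Tgfbr2-/- libraries, *Prg2* in 2 of the 4, and the Tgfbr2-/- points of *Gata3*, *Id2* and *Il1rl1* lie below the WT points.

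The ILC2 genes were lower in the same libraries. Their list too was chosen with earlier results known, so the adjusted p-values given here are a description. Of 14 ILC2 identity genes, 13 were tested, and 0 were called higher and 3 lower. The 0.866% of all genes that were called lower and the 2.61% called higher are the background for the counts in this paragraph. *Gata3*, the lineage factor, was at 2290 to 4648 CPM in WT and 864 to 1760 CPM in Tgfbr2-/- ILC2p (-1.41, SE 0.31, edgeR adjusted p = 0.0603). The study listed *Gata3* as unchanged in its RNA-seq of ILC2p, where its methods name 2 replicates in each condition. It also found no difference in GATA3 protein in the remaining Tgfbr2-/- ILC2p. *Id2* was at 1999 to 3324 CPM and 1144 to 1492 CPM (-0.96, SE 0.20, edgeR adjusted p = 0.0447). *Il1rl1*, the IL-33 receptor ST2, was at 926 to 1196 CPM and 222 to 336 CPM (-1.96, SE 0.22, edgeR adjusted p = 0.00156). *Il1rl1* was also singled out in the study from these libraries, so its direction is not independent evidence. The list summed to 8366 to 12230 CPM in WT and 3860 to 5110 CPM in Tgfbr2-/-. Of the 6 genes wanted by the sort, *Itgb7* was called lower (-1.05, standard error 0.25), and the summed level was 3474 to 4956 CPM in WT and 2087 to 2495 CPM in Tgfbr2-/-. Of 8 lineage-cocktail genes beside *Itgam*, 2 were tested and called higher, *Ly6c2* (5.07, standard error 0.45) and *Ly6c1* (2.91, standard error 0.74), which are near-identical, and *Itgax* had at most 3 counts in every ILC2p library. The list summed to 19.3 to 81.1 CPM in WT and 898 to 1074 CPM in Tgfbr2-/-. Of the tested genes of the B cell (1), T cell (1), erythroid (2), dendritic cell (5) and haematopoietic progenitor (4) lists, 0 were called, and 0 of the 6 megakaryocyte and platelet genes were tested.

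LP ILC2s answer a question the choice of genes did not use, whether these genes differ with *Tgfbr2* in mature ILC2s. Most of them were hardly detected there. Of the 48 genes, 14 had 0 counts in all 7 LP libraries, among them *Mpo*, *Elane*, *Ctsg*, *Camp* and *Lcn2*, and 19 had at most 3 counts in every library. A count of 0 allows up to 3 counts, or 0.0961 to 0.231 CPM depending on the library, for counting error only. *Ltf* had 66 counts in WT replicate 1 of experiment 2 and 0 in the other 6. The 7 genes above 10 CPM in every LP library were *Cyba*, *Capg*, *Adam8*, *Ncf4*, *Serpinb1a*, *Cybb* and *Mmp25*. *Cyba* was at 480 to 756 CPM in the 4 WT and 627 to 826 CPM in the 3 Tgfbr2-/- libraries, *Capg* at 85.2 to 298 CPM and 138 to 237 CPM, and *Adam8* at 89.1 to 148 CPM and 133 to 176 CPM. All 3 ranges overlapped. *Mmp25*, which fell to 1.97 CPM in a Tgfbr2-/- ILC2p library, was at 33.5 to 79.7 CPM in all 7.

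Of the 48 genes, 17 were tested between the LP genotypes and 0 were called, where 0.0% of the 11981 genes tested were called (edgeR's quasi-likelihood test; 557 of all genes had an unadjusted p under 0.05). The adjusted p-values of the 17 genes ran from 0.898 to 0.976 in the edgeR fit. Their median log2 fold change was 0.25, with 11 above 0 and 6 below, and that of all genes was -0.01. The tested gene with the largest change was *Pglyrp1*, a peptidoglycan-binding granule protein, at 0.571 and 0.868 CPM (experiment 1) and 15.58 and 14.82 CPM (experiment 2) in WT and at 12.5 and 29.8 CPM and 19.9 CPM in Tgfbr2-/- ILC2s (log2 fold change 3.52). It was above both WT libraries within each experiment and overlapped between experiments, and DESeq2 called it. *Mmp9* was at 0.933 and 0.766 CPM and 0 and 15.2 CPM in WT and at 22.7 and 22.6 CPM and 6.61 CPM in Tgfbr2-/- ILC2s (3.33), overlapping in experiment 2. No gene of the 48 had every Tgfbr2-/- LP library on one side of every WT library. *Lyz2* reached 81.6 CPM in 1 WT library, replicate 2 of experiment 2, and lay at 0 to 9.80 CPM in the other 6. The monocyte and macrophage genes summed to 451 CPM in that library and to 4.25 to 94.7 CPM in the other 6. *C1qa*, a complement gene of macrophages and the most abundant of the list there, had 1351 counts in it and 0 to 182 in the others, and *Csf1r* had 728 and 0 to 51, while *F13a1* had 0 counts in all 7. The *Mmp9* level of 15.2 CPM that overlapped with Tgfbr2-/- came from the same library. The part of those cells in the *Lyz2* and *Mmp9* values was not tested. No gene of the companion lists was called in LP ILC2s.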

How the data were processed

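The labels gave cell type, genotype, experiment and replicate of 15 libraries. Reads were aligned by the authors with TopHat against mm9, allowing several hits a read, and counted on whole RefSeq transcripts with rpkmforgenes, dropping stretches shared by differently named genes. Use of strand is not given in the sources used here. The deposited RPKM (reads per kilobase of transcript and library size) and raw counts of reads per gene were both used, and transcript lengths were recovered from their ratio. Counts were analysed with edgeR 4.0.16 in R 4.3.3 (TMM scaling, filterByExpr, quasi-likelihood test with genotype and experiment, Benjamini-Hochberg adjustment), separately for ILC2p and LP ILC2s. A call needed an adjusted p under 0.1 and a fold change over 1.5, the thresholds of the study's methods. All ILC2p and LP libraries entered, although the methods name 2 replicates in each condition. DESeq2 1.42.0 and limma 3.58.1 on log2(RPKM + 1) were alternatives. The fit was run on simulated counts with 100 genes changed 4-fold and 100 changed 64-fold. It recovered 100 and 100 of them with 19 false calls for ILC2p, and 99 and 100 with 12 false calls for LP ILC2s. The simulated counts had the same relative spread for every gene and no uneven detection. They therefore do not show how the fit does on these libraries.

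The 48 genes and the 14 companion lists were chosen with earlier results of these data known. The 10 staged genes, the 8 highest of the others per kb, and up to 4 genes and any called gene of each list are named; other genes were named after their values were seen. Some genes of the companion lists are counted but not reported here by name. Positions come from GENCODE genes on NCBIM37 (mm9), with 3 genes matched by an older name, and promoter windows from RefSeq on GRCm38.p6. Figures were drawn with matplotlib 3.10.9.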

Additional observations from a re-analysis of the deposited data

Results flagged for a closer look

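In groups of 4 libraries, 1 library stood far from the other 3 in 4 of 42 group values checked. The 42 values were of 18 genes and 3 stage sums in 2 ILC2p groups. The cut passes about 1 in 20 groups of 4 independent draws from 1 distribution. These values are not independent, since the secondary sum holds *Camp*, and each group joins 2 experiments. No comparison with chance is therefore made. In WT ILC2p, *Camp* was at 39.0 CPM in replicate 1 of experiment 2 and at 17.7 to 18.1 CPM in the others, and the summed secondary granule level was 176.7 CPM per kb in that library and 70.1 to 83.4 CPM per kb in the others. In Tgfbr2-/- ILC2p, *Ctsg* was at 849.8 CPM in replicate 1 of experiment 1 and at 458 to 522 CPM in the others, and the summed secondary granule level was 37880 CPM per kb in that library and 27580 to 29330 CPM per kb in the others. The causes were not tested.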

How the results depend on the processing

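Over all genes in ILC2p, 321 were called, 241 higher and 80 lower. DESeq2 called 1229, at least 10 counts in every library 199, experiment 1 alone 38 and experiment 2 alone 77. Leaving out 1 library gave 179 to 319, with 185 without WT replicate 2 of experiment 1, 212 without Tgfbr2-/- replicate 1 of experiment 1, 179 without WT replicate 1 and 185 without WT replicate 2 of experiment 2. Without 1 library, 148 to 216 genes were called higher and 18 to 103 lower. The fewest lower calls were without WT replicate 1 of experiment 2. Experiment 1 alone called 38 higher and 0 lower, and experiment 2 alone 75 higher and 2 lower. Calls were 75.1% higher with TMM scaling, 66.2% with library size only, 63.0% with the upper quartile and 55.0% with DESeq2, and the median log2 fold change of all genes was -0.10, -0.31, -0.40 and 0.03. A replicate block gave 175 calls, and the same-numbered libraries of an experiment did not deviate together (correlations -0.01, -0.04 and -0.06 across genes). The block called 38 of the 48 genes, as without it. Over all genes it called 155 higher and 20 lower, against 241 and 80, and 9 named ILC2p genes lost the call under it.

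Of the 48 genes 38 were called higher, 24 of the 30 that had at least 10 counts in every library, 19 with experiment 1 alone, and 35 to 41 without 1 library. In LP ILC2s 0 genes were called, against 338 with DESeq2 (1 of the 48, *Pglyrp1*) and 3 with no filter. The secondary log2 ratio of 8.27 was 8.89 in experiment 1 and 7.76 in experiment 2, and the tertiary ratio of 8.04 was 9.04 in experiment 1. Experiments 1 and 2 alone have 2 libraries a group. The causes of these differences were not tested. Of 883 fold changes of named ILC2p genes under these settings 0 turned direction, 736 kept their side of the threshold, 139 lost the call and 8 gained it, among them *Elane* and *Ctsg* with DESeq2. *Csf2rb* and *Ly6c1* lost the call with library size only, and *Itgb7* and *Ear2* with DESeq2. *Clec7a* in ILC2p and 31 of the 48 genes in LP ILC2s did not pass the filter on low counts and have no test there. LP experiment 2 alone, with 1 Tgfbr2-/- library, was not run.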
